A study of Mus musculus with 6 samples.

Results

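The Hox genes encode transcription factors that bind DNA through a homeodomain and lie in the mouse genome in 4 clusters named Hoxa, Hoxb, Hoxc and Hoxd. Genes of the same paralogue number descend from 1 ancestral gene, low numbers are used from the hindbrain onwards and high numbers towards the tail and the ends of the limbs, and many adult stromal and vascular cells retain a Hox profile that reflects where in the body they lie. Several members are known for their part in blood vessels. Hoxa3, Hoxb3 and Hoxd3 favour endothelial migration and sprouting, Hoxb5 and Hoxa9 act on the VEGF receptor gene Kdr, and Hoxa5 and Hoxd10 restrain angiogenesis. The probe sets examined were those whose annotation names exactly 1 gene of the 4 clusters by its symbol, a rule that uses no measured value. They numbered 48 and stood for 33 of the 39 Hox genes of the mouse, among 18193 genes represented on the arrays. Where a gene had several probe sets, the brightest over the 6 arrays stood for it. The other 6 had no probe set of their own, and 3 probe sets annotated to a pair of neighbours (Hoxd3 with Hoxd4, or Hoxb7 with Hoxb8) were not used.

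RNA came from cells sorted with a CD31 antibody from collagenase-digested mammary glands of FVB/N mice aged 9 weeks, and each of 6 samples was hybridized to 1 Affymetrix array. All mice carried PyMT, the polyoma middle T oncogene, and the genotype Ets2db/loxP, in which 1 copy of Ets2 is disrupted in every cell (db) and the other can be removed by Cre (loxP). The 3 control samples had no Cre (PyMT;Ets2db/loxP). The 3 deleted samples also carried Fsp-cre, in which the promoter of Fsp1 (S100a4) drives Cre in fibroblasts (PyMT;Fsp-cre;Ets2db/loxP). The source field of the control samples names no oncogene, but the titles and the genotype entries do name PyMT, and these were followed. The comparison addressed whether loss of Ets2 from mammary fibroblasts went with a change in the Hox profile of the cells sorted as endothelium. Signals are log2 values after the Robust Multichip Average (RMA), every difference is deleted minus control on that scale, and the precision is limited by the number of arrays.

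The sort was not pure by these arrays. All 14 endothelial markers read above background on every array, with Pecam1, which encodes CD31, at 11.30 ± 0.41 in control and 11.69 ± 0.37 in the deleted group, and Cdh5, the endothelial cadherin, at 10.97 ± 0.33 and 11.09 ± 0.48 (SD, n = 3 each). All 12 epithelial markers and 15 of 18 fibroblast markers also read above background on every array, with Epcam, an epithelial adhesion protein, at 12.35 ± 0.30 and 12.46 ± 0.04, and Col1a1, the main collagen of connective tissue, at 12.65 ± 0.07 and 12.27 ± 0.26 (SD, n = 3 each). The Hox signals below are therefore those of the sorted material as a whole, and in such bulk RNA fewer cells of a type cannot be told apart from less RNA per cell. Background was taken from 72 olfactory and vomeronasal receptor genes, which mammary tissue does not use. Their median signal was 3.65, and their 95th percentile, used as the limit, lay between 6.10 and 6.65 on the 6 arrays.

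Hox signal above background was found mainly in the middle of the clusters. Of the 33 genes, 17 read above the limit on all 6 arrays (51.5%, against 64.2% of all genes), 7 did so on some arrays and 9 on none. Among paralogues 4 to 10, 15 of 19 genes were above it, compared with 2 of 7 among paralogues 1 to 3 and 0 of 7 among paralogues 11 to 13, which include the genes of the limb ends and the genital tract. With paralogues divided instead as 4 to 8 and 9 to 13, the counts above it were 10 of 12 and 5 of 14. The highest single reading among paralogues 11 to 13 was 6.32, for Hoxd12. By cluster, 5 of 9 Hoxa, 5 of 9 Hoxb, 4 of 7 Hoxc and 3 of 8 Hoxd genes were above it. With the stricter 99th percentile of the receptor genes as the limit, 11 genes were above it on all arrays. A reading below the limit does not show that a gene is silent, since a weak probe set can miss its transcript.

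**Figure D1:**
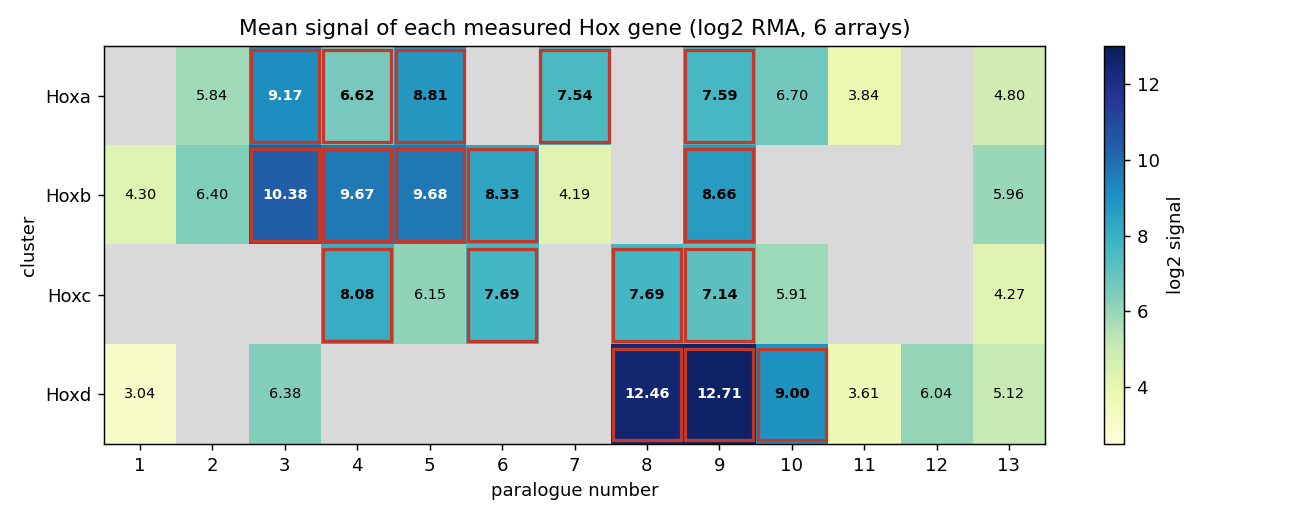
Mean log2 RMA signal over 6 arrays of the 33 measured Hox genes, by cluster (vertical) and paralogue number (horizontal), with the 17 genes above background on every array in bold and outlined in red. Grey cells have no gene in the mouse or no probe set of their own, and the outlined cells lie between paralogues 3 and 10.

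The Hoxd cluster held the 2 brightest probe sets and some of the dimmest. Hoxd9 read 12.71 on average, a signal above that of 96.1% of genes, and Hoxd8 read 12.46, above 94.7%. Hoxd10 read 9.00, whereas Hoxd11 read 3.61, Hoxd12 6.04 and Hoxd13 5.12. These genes are neighbours, and the annotated start of Hoxd13 lies 36390 bases from that of Hoxd8. Signals of different probe sets do not order the abundance of their transcripts, so these values place each gene against background and not against its neighbour. The 250 bases before the starts of Hoxd13, Hoxd10, Hoxd9 and Hoxd8 are shown because they belong to a gene below the background limit on every array and to the 3 Hoxd genes above it on every array. They are from RefSeq on GRCm38.p6, plus strand, at chr2:74667975-74668224, chr2:74691641-74691890, chr2:74697513-74697762 and chr2:74704365-74704614, and capitals mark CpG dinucleotides, the sites of DNA methylation that are dense at many Hox promoters.
Hoxd13: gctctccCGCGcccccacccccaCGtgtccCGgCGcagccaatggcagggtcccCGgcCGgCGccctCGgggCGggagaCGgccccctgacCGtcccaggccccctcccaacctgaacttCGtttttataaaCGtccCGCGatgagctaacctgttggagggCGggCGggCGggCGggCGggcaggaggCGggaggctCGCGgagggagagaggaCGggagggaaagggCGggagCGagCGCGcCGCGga
Hoxd10: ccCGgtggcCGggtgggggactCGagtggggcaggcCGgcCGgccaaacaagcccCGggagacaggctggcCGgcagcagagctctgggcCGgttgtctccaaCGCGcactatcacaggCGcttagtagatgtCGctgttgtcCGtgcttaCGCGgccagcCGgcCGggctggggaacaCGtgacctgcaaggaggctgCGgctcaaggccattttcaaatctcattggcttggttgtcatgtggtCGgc
Hoxd9: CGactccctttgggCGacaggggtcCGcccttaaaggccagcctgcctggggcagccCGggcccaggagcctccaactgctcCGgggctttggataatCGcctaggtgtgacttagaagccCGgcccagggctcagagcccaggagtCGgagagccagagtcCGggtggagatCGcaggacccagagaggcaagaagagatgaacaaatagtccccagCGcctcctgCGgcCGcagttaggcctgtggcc
Hoxd8: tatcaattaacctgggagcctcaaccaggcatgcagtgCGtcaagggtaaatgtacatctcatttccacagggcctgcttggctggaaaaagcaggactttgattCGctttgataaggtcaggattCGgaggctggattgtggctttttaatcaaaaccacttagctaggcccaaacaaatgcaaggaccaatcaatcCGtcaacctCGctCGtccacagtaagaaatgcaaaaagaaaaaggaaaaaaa

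These stretches held 31 CpGs before Hoxd13, 20 before Hoxd10, 13 before Hoxd9 and 6 before Hoxd8, so the 2 genes with the brightest probe sets had the fewest of these 4. Promoter windows of 300 bases were at hand for 19 of the 33 genes, as 21 windows. Their median was 15 CpGs, compared with 7 over all 32851 windows. In the 9 windows of genes above background on every array the median was 14. In the 7 windows of genes above it on none the median was 25. The counts overlapped widely, from 4 to 29 in the 9 windows and from 4 to 45 in the 7. The 7 include windows of Hoxd11 with 4 and 25. A link between CpGs and signal was not tested. The ETS core CCGGAA, searched on both strands, occurred in 2 Hox windows, of Hoxa10 and Hoxd12 (9.52%, against 14.9% of all windows). TGATTNAT, a form of the site bound jointly by Hox and Pbx proteins, also occurred in 2, of Hoxa2 and Hoxd11 (9.52%, against 3.22% of all windows). Such matches are a description of the letters only.

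No Hox gene differed between the groups by the test. In limma's moderated test with Benjamini-Hochberg adjustment, 0 of the 33 genes passed, as did 0 of all 18193 genes (0.0%), and the smallest adjusted p of a Hox gene was 0.9999. Without adjustment, 0 Hox genes and 0 of the 48 Hox probe sets had p under 0.05, against 1.79% of all genes. Other settings did give such genes. Array weights gave 4 (Hoxa4, Hoxa11, Hoxb9 and Hoxc9, all higher in the deleted samples), where 6.96% of all genes had p under 0.05. The number in the sample identifiers, taken as a fixed replicate block, also gave 4, against 6.29% of all genes. Of these, Hoxa10 and Hoxc4 were lower and Hoxc10 and Hoxc13 higher in the deleted samples. Leaving out control replicate 3 gave 1 (Hoxb4, higher, against 1.71% of all genes). Leaving out deleted replicate 2 also gave 1 (Hoxb9, higher, against 3.24% of all genes). The pair of thresholds that the study used, a change of more than 2-fold and p under 0.05, was met by 0 Hox genes, against 0.0934% of all genes. An unmoderated test also called 0 after adjustment. Differences ranged from -0.37 to 0.74 with a median of 0.07 (all genes, 0.00), and 14 genes were lower and 19 higher in the deleted samples, that is 42.4% lower against 49.1% of all genes. Without control replicate 3 the median was -0.010. The median size of a difference, whatever its sign, was 0.15 for Hox genes and 0.11 for all genes. For 26 of the 33 genes the 95% interval of the difference lay within 1 log2 unit to either side of 0, and for the other 7 it did not.

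**Figure D2:**
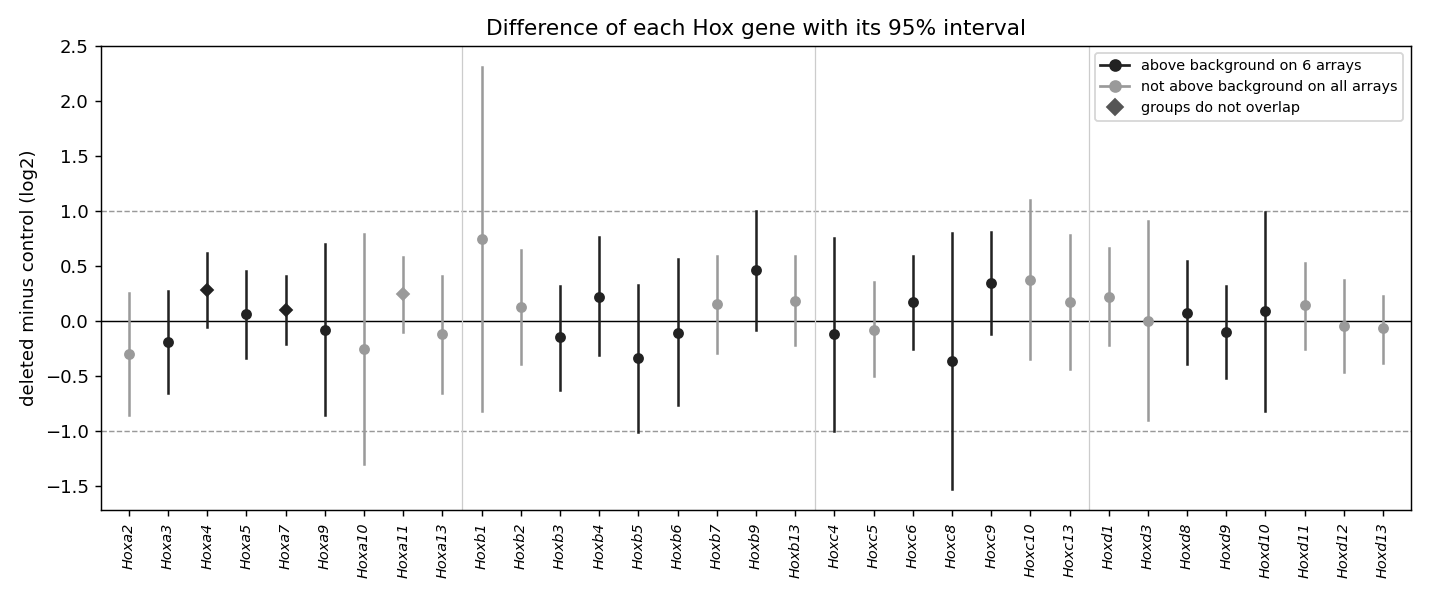
Difference of each Hox gene, deleted minus control (log2, vertical), with its 95% interval from limma (lines), in black for the 17 genes above background on all 6 arrays and in grey for the others, and with dashed lines at 1 log2 unit. Every interval crosses 0, and diamonds mark the 3 genes whose groups did not overlap.

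The brightest members, which pattern the trunk and limbs, differed little. Hoxd9 read 13.09, 12.59 and 12.61 in the control samples and 12.65, 12.56 and 12.78 in the deleted samples. The groups overlapped, and the difference was -0.10 with a 95% interval from -0.52 to 0.32. Hoxd8 read 12.82, 12.32 and 12.14 in control and 12.53, 12.39 and 12.58 in deleted samples, a difference of 0.07 (95% interval -0.39 to 0.54), and its other probe set differed by 0.03. In both genes the highest value was that of control replicate 1, without which Hoxd9 differed by 0.06 and Hoxd8 by 0.27. Without control replicate 3 Hoxd8 differed by -0.07. The names of the brightest probe sets of Hoxd8, Hoxa3 and Hoxa5 mark them as ones that may bind related transcripts as well.

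Members known to favour angiogenesis were above background in both groups, except Hoxd3 by its own probe set. Hoxb3 read 10.43, 10.53 and 10.40 in control and 10.26, 9.96 and 10.69 in deleted samples. Deleted samples held both the lowest and the highest value, and the difference was -0.15 with a 95% interval from -0.63 to 0.32 (0.02 without deleted replicate 2). Hoxa3 read 9.34, 9.22 and 9.24 in control and 9.05, 8.74 and 9.44 in deleted samples, with the extremes in the same 2 deleted arrays as for Hoxb3. Its difference was -0.19 (95% interval -0.66 to 0.27), and its 3 dimmer probe sets differed by -0.14, 0.20 and 0.39. These read 8.87, 6.40 and 4.71 on average, so the positive signs came from probe sets near or below the background limit. Hoxd3, whose product acts on integrin genes, read 6.43, 6.91 and 5.80 in control and 6.68, 5.66 and 6.81 in deleted samples. It was above the background limit on 4 arrays only, and the difference of 0.00 had a 95% interval from -0.90 to 0.91. Of the unused probe sets that Hoxd3 shares with Hoxd4, the brighter read 7.09 to 8.27, above the limit on every array. The dimmer read 4.58 to 5.67, below the limit on every array.

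Hoxb5, Hoxa9 and their target Kdr likewise showed no difference past the test, Kdr having means of 12.09 ± 0.31 (control) and 12.20 ± 0.31 (deleted; SD, n = 3 each). Hoxb5 read 9.34, 9.76 and 10.46 in control and 9.31, 9.70 and 9.52 in deleted samples, a difference of -0.34 (95% interval -1.01 to 0.33). The high value of control replicate 3 carried most of it, and without that array the difference was -0.04. Its neighbour Hoxb4, a factor of blood stem cells, read 9.15, 9.51 and 10.03 in control and 9.74, 9.80 and 9.82 in deleted samples, and differed by 0.22 (0.02 without control replicate 1 and 0.46 without control replicate 3). Hoxa9, a factor of endothelial commitment, read 7.36, 7.77 and 7.77 in control and 6.82, 7.70 and 8.14 in deleted samples. Deleted replicates 1 and 3 thus lay below and above every control array, the difference was -0.08 (95% interval -0.86 to 0.70), and it became 0.29 without deleted replicate 1.

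The members known to restrain angiogenesis, Hoxa5 and Hoxd10, were above background as well. Hoxa5 read 8.85, 8.85 and 8.65 in control and 8.96, 8.56 and 9.00 in deleted samples, and differed by 0.06 (95% interval -0.34 to 0.45). Its other probe set, at a mean of 8.42, differed by -0.29 without overlap between the groups, so the 2 probe sets pointed in opposite directions. The brighter probe set also changed sign, at most to -0.02, without control replicate 3, deleted replicate 1 or deleted replicate 3. Hoxd10 read 9.83, 8.52 and 8.50 in control and 9.42, 9.00 and 8.70 in deleted samples, a difference of 0.09 (95% interval -0.82 to 0.99). Replicate 1 of each group was its highest, and the difference ranged from -0.14 without control replicate 3 to 0.53 without control replicate 1. Of the 11 genes with several probe sets, 4 (Hoxa3, Hoxa5, Hoxa9 and Hoxa10) had probe sets that differed in sign. Except in Hoxa5, the probe sets whose sign opposed the brightest read near or below the background limit. Their means were 6.40 and 4.71 for Hoxa3, 6.07 for Hoxa9 and 3.55 for Hoxa10.

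**Figure D3:**
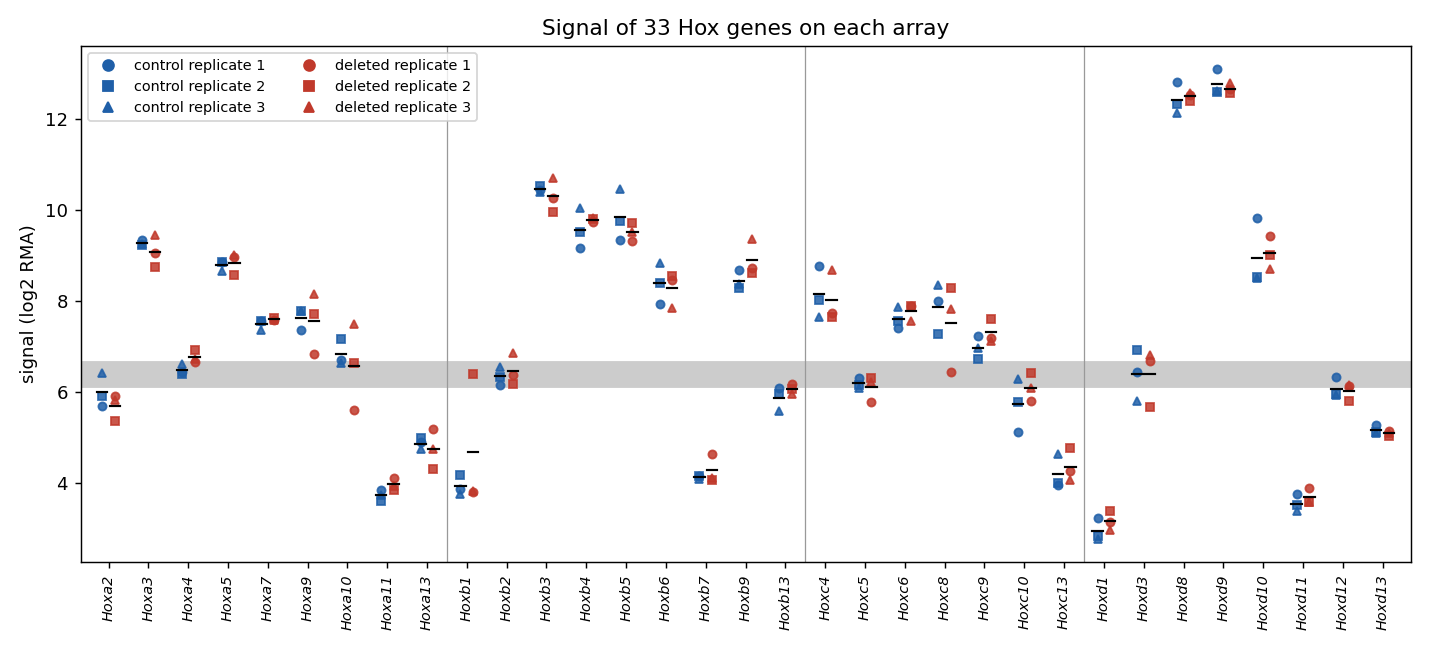
Log2 RMA signal (vertical) of the 33 Hox genes on each of 6 arrays, with control in blue, deleted in red, a symbol for each replicate and black bars for group means (n = 3). The grey band spans the background limits of the 6 arrays, 6.10 to 6.65, and the groups overlap for 30 of the 33 genes.

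The largest positive difference was that of a gene at background. Hoxb1, a hindbrain gene, read 3.87, 4.16 and 3.74 in control and 3.79, 6.39 and 3.81 in deleted samples. Deleted replicate 2 alone was high, and without it the difference of 0.74 (95% interval -0.82 to 2.31) became -0.12. Hoxb9, a gene of the thoracic region that is known in mammary development, read 8.67, 8.27 and 8.36 in control and 8.72, 8.61 and 9.35 in deleted samples. It differed by 0.46 (SE 0.23), with the smallest p of the 33 genes, and by 0.23 without deleted replicate 3. Hoxc10 read 5.11, 5.77 and 6.27 in control and 5.80, 6.41 and 6.07 in deleted samples, mostly below the background limit, and differed by 0.37 (0.07 without control replicate 1 and 0.65 without control replicate 3). Hoxc9 read 7.22, 6.71 and 6.96 in control and 7.19, 7.60 and 7.12 in deleted samples, and differed by 0.34 (95% interval -0.12 to 0.81, and 0.20 without deleted replicate 2). For these 4 genes the groups overlapped.

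The largest negative differences rested on single arrays too. Hoxc8, a gene of the thoracic region, read 7.99, 7.27 and 8.35 in control and 6.43, 8.27 and 7.82 in deleted samples. Deleted replicate 1 lay below every other array, and without it the difference of -0.37 (95% interval -1.53 to 0.80) became 0.17. Hoxa10, known in the uterus and the blood, read 6.70, 7.15 and 6.64 in control and 5.59, 6.64 and 7.49 in deleted samples, and its difference of -0.26 became 0.24 without the same array. Hoxa2, a hindbrain gene, read 5.68, 5.90 and 6.40 in control and 5.90, 5.36 and 5.81 in deleted samples, below the background limit on 5 of 6 arrays. Its difference of -0.30 became -0.10 without control replicate 3. Hoxb5, at -0.34, is described above.

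In 3 genes, all of the Hoxa cluster and all higher in the deleted samples, the groups did not overlap. Of all genes, 6.07% were without overlap and 3.36% were without overlap and higher in the deleted samples. Hoxa4 read 6.44, 6.39 and 6.61 in control and 6.65, 6.91 and 6.71 in deleted samples. They differed by 0.28 (95% interval -0.06 to 0.62), with a gap of 0.044 between the groups, and its dimmer probe set differed by 0.23 with overlap. Hoxa7 read 7.55, 7.55 and 7.36 in control and 7.58, 7.62 and 7.57 in deleted samples. They differed by 0.10 (0.04 without control replicate 3), with a gap of 0.015. Hoxa11, at background, read 3.84, 3.60 and 3.72 in control and 4.11, 3.84 and 3.92 in deleted samples, which differed by 0.24 and left a gap of 0.002. The adjusted p from limma was above 0.05 for each of the 3. Fewer arrays have to separate when 1 is left out, and the count then became 12 of 33 genes if it was control replicate 1 (16.5% of all genes) and 6 if it was control replicate 3 (13.1% of all genes). Leaving out deleted replicate 2 gave 5 (19.1% of all genes), and leaving out deleted replicate 3 gave 7 (16.2% of all genes).

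The remaining 13 members gave differences from -0.12 to 0.22. Above background on every array were Hoxb6, at 8.33 on average with a difference of -0.11, Hoxc4 at 8.08 with -0.12 and Hoxc6, a gene of the thoracic region, at 7.69 with 0.17. Hoxb2, at 6.40, was above the limit on 5 arrays and differed by 0.13. Hoxc5 and Hoxd12, at 6.15 and 6.04, were above it on 2 arrays each and differed by -0.08 and -0.05. The other 7 were below it on every array. These were Hoxa13 at 4.80, Hoxb7 at 4.19, Hoxb13 at 5.96, Hoxc13 at 4.27, Hoxd1 at 3.04, Hoxd11 at 3.61 and Hoxd13 at 5.12. The unused probe set that Hoxb7 shares with Hoxb8 read 6.73 to 7.60, above the limit on every array. For all 13 the groups overlapped.

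Hox genes varied more between replicates than genes at large. The SD within groups was 0.5 or more for 7 Hox genes (21.2%, against 8.27% of all genes), with a median over the members of 0.26, compared with 0.22 for all genes. The 7 were Hoxb1, Hoxc8, Hoxa10, Hoxd10, Hoxd3, Hoxc4 and Hoxa9. Of these, Hoxb1 was below the background limit on every array, and Hoxa10 and Hoxd3 were above it on 4 arrays each. The median SD was higher still for endothelial (0.29), pericyte and smooth muscle (0.34) and macrophage markers (0.44). It was 0.25 for fibroblast and for epithelial markers. Genes were not matched for signal. Certain arrays deviated in several members at once. Deleted replicate 2 held the most extremes, the highest value of 8 genes, among them Hoxa4, Hoxa7, Hoxc9 and Hoxb1, and the lowest of 10, among them Hoxa3, Hoxa5, Hoxb3 and Hoxd9. Deleted replicate 1 held the lowest values of Hoxa9, Hoxa10 and Hoxc8, and deleted replicate 3 the highest values of Hoxa3, Hoxa5, Hoxa9, Hoxa10, Hoxb3 and Hoxb9. Control replicate 1 was the highest array for Hoxd8, Hoxd9, Hoxd10 and Hoxc4, and control replicate 3 for Hoxb4, Hoxb5, Hoxb6 and Hoxc8. These extremes fell in both groups and in different clusters.

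**Figure D4:**
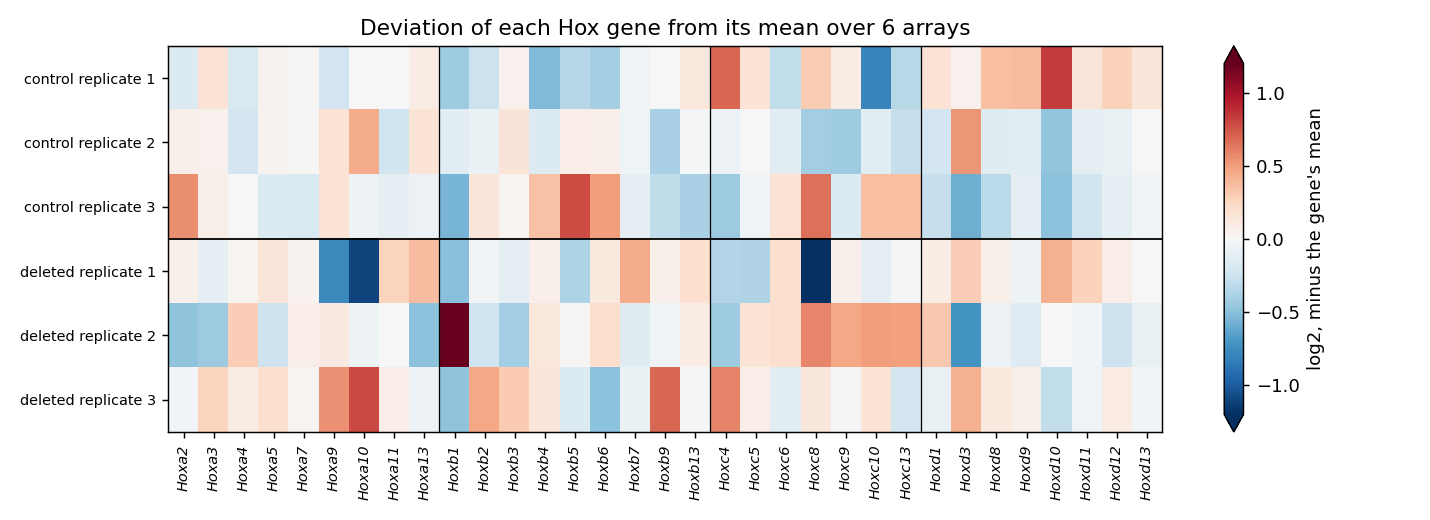
Deviation of each Hox gene (horizontal) from its mean over the 6 arrays (log2, color scale), for the control arrays above the black line and the deleted arrays below it. The darkest cells are Hoxb1 in deleted replicate 2 and Hoxa10 and Hoxc8 in deleted replicate 1, and Hoxa4 alone lies below its mean on all 3 control arrays and above it on all 3 deleted arrays.

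Averaged over their members, the clusters showed no common shift. The mean deviation of the 33 genes was 0.00, -0.07 and -0.02 in the control samples and -0.06, 0.04 and 0.09 in the deleted samples. For the Hoxd genes it was 0.30, -0.08 and -0.27 in control and 0.15, -0.12 and 0.03 in deleted samples, so that replicate 1 of each group was the highest. For the Hoxa genes deleted replicate 3 stood highest, at 0.21, and deleted replicates 1 and 2 lowest, at -0.12 and -0.14. Median differences were -0.08 for Hoxa, 0.15 for Hoxb, 0.17 for Hoxc and 0.04 for Hoxd genes, and the arrays of the groups overlapped in each cluster.

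Markers of other cells lay to one side in the deleted samples, although 0 passed limma's adjusted threshold. All 18 fibroblast markers were lower in the deleted samples, against 49.1% of all genes, with a median of -0.42. They included Col14a1 at -1.16, Ogn at -1.02, Dpt at -0.72 (-0.28 without control replicate 1), and Pdgfra, the PDGF receptor of fibroblasts, at -0.59. Of the 18, 7 had p under 0.05 in limma before adjustment, against 1.79% of all genes. The mean deviation of the 18 was 0.40, 0.08 and 0.21 in control and -0.17, -0.25 and -0.27 in deleted samples. All 11 measured macrophage markers were lower as well, with a median of -0.73, including C1qb at -1.30, Mrc1 at -0.93 and Adgre1 at -0.91. Of the 11, 6 had p under 0.05 in limma before adjustment, against the same 1.79% of all genes. Their deviation was 0.05, 0.25 and 0.77 in control and -0.31, -0.10 and -0.66 in deleted samples. Col14a1, Ogn and C1qb are among the genes that the study itself called lower in these samples, so they are no separate evidence. Pericyte and smooth muscle markers were higher in 9 of 11 cases, with a median of 0.21, Tagln at 0.62, Myh11 at 0.41, Des at 0.37 and Rgs5 at 0.07. Endothelial markers were higher in 11 of 14 cases, with a median of 0.11, Pecam1 at 0.39, and Emcn and Esam at 0.30 each. Epithelial markers were lower in 9 of 12 cases, with a median of -0.13. Krt5 differed by -0.38 (-0.04 without control replicate 3) and Cldn4 by 0.23 (0.09 without deleted replicate 2). Cdh1 differed by -0.22 (-0.09 without deleted replicate 1). Control replicate 1, where Hoxd8, Hoxd9 and Hoxd10 were highest, also had the highest fibroblast value, and control replicate 3, where Hoxb4, Hoxb5 and Hoxb6 were highest, the highest macrophage and the lowest endothelial value, -0.24. The order differed on other arrays. Control replicate 3 had a fibroblast value of 0.21 and the lowest mean deviation of the Hoxd genes, -0.27. Deleted replicate 1 had a fibroblast value of -0.17 and a Hoxd value of 0.15. The part of these cells in the Hox signals was not tested.

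**Figure D5:**
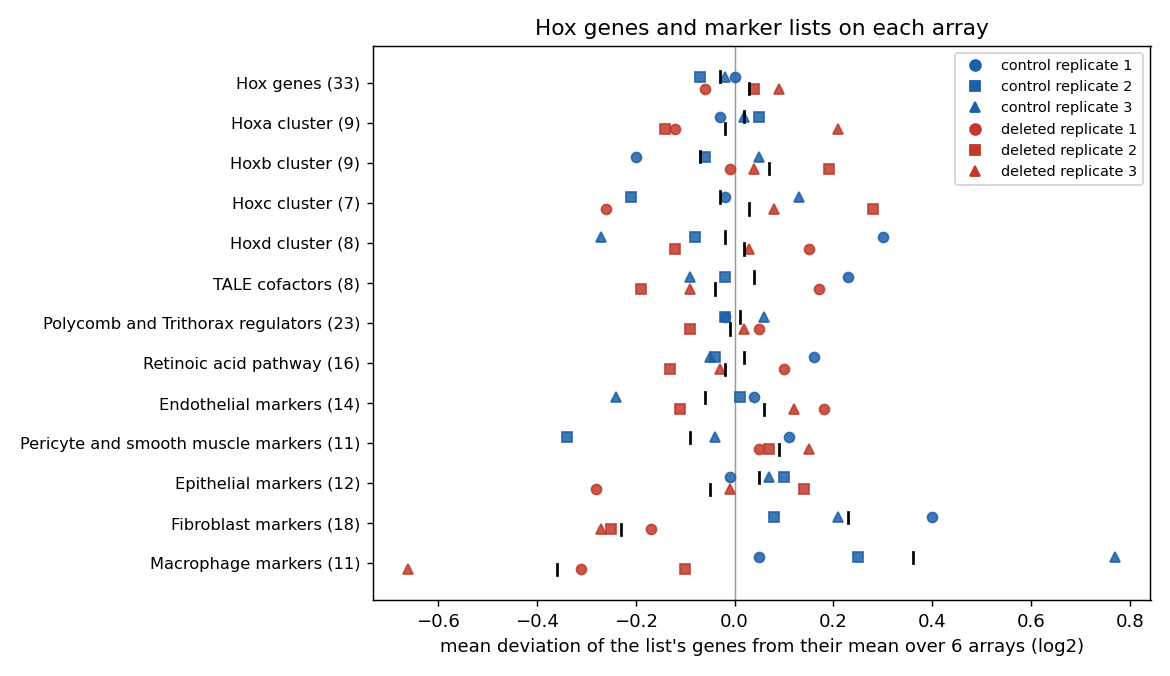
Mean deviation of the genes of each list from their mean over the 6 arrays (log2, horizontal), with control in blue, deleted in red, a symbol for each replicate, black bars for group means (n = 3) and the number of genes in brackets. The groups overlap for all Hox lists and lie apart for fibroblast and macrophage markers.

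Genes that work with the Hox factors were mostly expressed and did not pass the test either. The cofactors of the TALE homeodomain class, Pbx, Meis and Pknox, bind DNA together with Hox proteins. Of 8 measured, 6 were above background on every array, 4 were lower and 4 higher, and the median difference was 0.00. Pknox2 differed by -0.51 (-0.11 without control replicate 3), Meis1 by -0.48 (-0.80 to -0.27 with 1 array left out, and -0.02 as the mean over its probe sets) and Pbx3 by 0.21. Meis1 was above the background limit on 3 arrays only and Pknox2 on 5. Polycomb and Trithorax proteins keep Hox genes off or on, and all 23 measured were above background, 12 lower and 11 higher with a median of -0.02. Among them Ring1 differed by -0.41 (-0.0003 without control replicate 3), Kmt2b by -0.28 and Rbbp5 by 0.20. The 8 ParaHox and Evx genes, relatives and neighbours of the Hox clusters, were low, 7 of them below the limit on every array, with Gsx2 at 0.37 (0.03 without deleted replicate 2), Cdx1 at 0.24 and Evx2 at -0.17. In these 3 lists 0 genes had an unadjusted p under 0.05 from limma, against 1.79% of all genes.

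Retinoic acid, which sets Hox expression in the embryo, was covered by 16 measured genes, 6 lower and 10 higher with a median of 0.04. Aldh1a2, which makes retinoic acid, differed by -0.66 (SE 0.25) at background and Crabp1, which binds it in the cell, by -0.58 (SE 0.22), each with overlap between the groups, while the receptor gene Rarg differed by 0.33. Crabp1 was above the background limit on 3 arrays only. Aldh1a2 and Crabp1 were the 2 genes of this list of 16 with p under 0.05 in limma before adjustment, against 1.79% of all genes. Of 11 endothelial genes known as targets of Hox factors, 4 were lower and 7 higher with a median of 0.03. Plaur, the urokinase receptor that Hoxa3 raises and Hoxd10 lowers, read 8.24, 8.31 and 8.11 in control and 8.63, 8.58 and 8.59 in deleted samples, a difference of 0.38 (SE 0.13) without overlap, and Efna1 and Itgb3 differed by 0.24 and -0.22.

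Among 9 other patterning factors, mostly of the homeobox class, 5 were lower and 4 higher. Meox1, a homeobox gene of mesoderm and vessels, read 11.47, 11.62 and 11.48 in control and 11.95, 11.90 and 11.91 in deleted samples. It differed by 0.40 (SE 0.13) without overlap, and by 0.37 to 0.44 with any 1 array left out. Plaur and Meox1 were each the 1 gene of their list with p under 0.05 in limma before adjustment, against 1.79% of all genes. Neither kept that under every omission of 1 array. Each was also the 1 gene of its list without overlap, against 6.07% of all genes. Prox1, the factor of lymphatic endothelium, differed by -0.36 (0.01 without control replicate 1) and Tshz2 by -0.32. Of the transcripts that run opposite to Hox genes, Hoxd3os1 was above background at 9.67 and differed by -0.12, whereas Hoxa11os (0.17) and Hoxb5os (-0.10) were at background. For every gene named in the last 3 paragraphs the adjusted p from limma was above 0.05.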

How the data were processed

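The authors sorted CD31-positive cells into Trizol, amplified the RNA with the Ovation system and hybridized 6 biotin-labeled samples to Affymetrix mouse expression arrays. The values used are the log2 RMA signals that the authors deposited, 1 column per array, with no RMA version named in the sources used here. RMA makes the arrays share 1 distribution (medians 7.02 to 7.07), so a shift of most genes would not show. After 64 control probe sets were left out, 45037 went into limma (version 3.58.1, R version 4.3.3; two-sided, Benjamini-Hochberg over all, no filter), the 3 deleted against the 3 control samples. As a check of the code only, the fit was run on simulated data with known differences. Their noise was independent between probe sets, and its spread was not tied to signal. Of these probe sets 34945 were annotated to 1 gene, 932 to several and 9160 to none, and 34741 matched a RefSeq gene. The study calls the samples biological replicates. A gene counted as above background when it exceeded the 95th percentile of 72 chemosensory receptor genes on each array.

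Values per array were given for the 4 lowest and 4 highest differences, genes without overlap, the 8 brightest and 7 members known in vessels. The members and lists were chosen with earlier results of these data known. The alternatives were other probe set choices, filters, scalings, background limits, priors, array weights, replicate blocks, an unmoderated test and leaving out each array.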

Additional observations from a re-analysis of the deposited data

How the results depend on the processing

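No Hox gene passed the adjusted threshold in any of the 16 alternatives to the fit, and 42 of 511 values of single Hox genes changed sign, with 14 genes that never did. Kept to probe sets above the median signal, 16 Hox genes remained, of which 1 had no overlap and 8 were lower, with a median difference of -0.011 in place of 0.075. With 1 array left out the median ran from -0.010 to 0.089 and the count without overlap from 3 to 12, where all genes gave 11.9% to 19.1%. Before adjustment, 4 Hox genes had p under 0.05 with the fixed replicate block (Hoxa10, Hoxc4, Hoxc10 and Hoxc13, against 6.29% of all genes), 4 with array weights (6.96%), 1 without control replicate 3 (1.71%), 1 without deleted replicate 2 (3.24%) and 0 in the other 12 alternatives. Above background were 11 genes at the 99th percentile. The number in the identifiers is shared by 2 pairs of samples, whose deviations correlated at 0.166 and -0.017, so it was not taken as a pairing. As a fixed replicate block the number rests each difference on these 2 pairs alone. Replicate 3 of each group shares its number with no other array and so adds nothing to that difference. With the number as a fixed replicate block 16 Hox genes were lower and as a random one 15. Under the fixed block differences became -0.09 for Hoxa5, 0.33 for Hoxb6, -0.50 for Hoxd3, -0.11 for Hoxd8, 0.11 for Ring1, 0.13 for Kmt2b, -0.04 for Cldn4, -0.15 for Cdh5, -0.05 for Epcam and -0.19 for Rgs5, and under the random block -0.03 for Hoxd3. With array weights they became 0.06 for Hoxc4, 0.11 for Hoxc8, -0.33 for Hoxd3, 0.05 for Hoxd9, 0.07 for Hoxd12, -0.0002 for Cdh5 and -0.05 for Epcam. The mean over probe sets gave 0.06 for Hoxa3 and -0.12 for Hoxa5, and the probe set with the largest SD 0.39 for Hoxa3, -0.29 for Hoxa5, 0.15 for Itgb3 and -0.11 for Epcam. With 1 array left out the difference ran from -0.02 to 0.20 for Hoxa5, -0.37 to 0.29 for Hoxa9, -0.71 to 0.24 for Hoxa10, -0.34 to 0.09 for Hoxa13, -0.12 to 1.18 for Hoxb1, -0.07 to 0.28 for Hoxb2, -0.35 to 0.02 for Hoxb3, -0.33 to 0.11 for Hoxb6, -0.03 to 0.26 for Hoxb7, -0.45 to 0.19 for Hoxc4, -0.18 to 0.08 for Hoxc5, -0.75 to 0.17 for Hoxc8, -0.04 to 0.39 for Hoxc13, -0.29 to 0.37 for Hoxd3, -0.07 to 0.27 for Hoxd8, -0.19 to 0.06 for Hoxd9, -0.14 to 0.53 for Hoxd10 and -0.12 to 0.08 for Hoxd12. It ran from -0.01 to 0.38 for Pbx3, -0.57 to 0.09 for Kmt2b, -0.01 to 0.31 for Rbbp5, -0.74 to 0.01 for Prox1, -0.29 to 0.08 for Hoxd3os1, -0.08 to 0.38 for Cdh5, -0.06 to 0.21 for Epcam and -0.07 to 0.18 for Rgs5. The cause of these changes was not tested. With 3 arrays a group the median 95% interval over all tested probe sets, not the Hox genes alone, reached 0.446 to either side.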
